A study of Mus musculus with 14 samples.

Results

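The Wnt ligands, their receptors, the R-spondins, the secreted antagonists and a few feedback genes were followed in mouse embryonic fibroblasts (MEFs) with and without the acetyltransferase Tip60. Members were taken by symbol: every Wnt ligand gene, every Frizzled receptor gene (Fzd), the secreted Frizzled-related proteins (Sfrp), the Dickkopf genes (Dkk), the R-spondins (Rspo), and Lrp5, Lrp6, Wif1, Frzb, Axin2, Lef1, Nkd1, Nkd2 and Notum. This rule used no expression value and found 50 of the 25275 gene identifiers that could be paired with a symbol: 19 ligands, 12 receptors and coreceptors, 4 R-spondins, 11 secreted antagonists and 4 feedback or nuclear genes. MEFs are primary fibroblasts grown from whole embryos, here taken at stage E13.5 and kept in 3% oxygen. Knockout cells (genotype Tip60-/-) and controls (Tip60+/+) were harvested 3 or 5 days after the start of treatment with 250 nM 4-OHT, the active tamoxifen metabolite that switches on tamoxifen-inducible Cre recombinase. The labels give the same treatment text for all libraries, and they name neither the Cre transgene nor its promoter. The 14 poly(A) RNA libraries fall into control day 3 (n = 3), KO day 3 (n = 3), control day 5 (n = 4) and KO day 5 (n = 4). They come from 8 embryos, 4 of each genotype, and 5 of these embryos were sampled on both days; replicates 1 and 2 of control day 3 carry the same embryo name. The labels number litters 1 to 3 in KO and 1 and 2 in controls, but the leading part of the embryo names is never shared between genotypes; taken as different litters, litter and genotype cannot be told apart. By label, 5 of the 7 KO libraries and 1 of the 7 control libraries are male.

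Wnt proteins are lipid-modified secreted ligands that bind a Frizzled together with the coreceptor Lrp5 or Lrp6; the signal stops the destruction complex (Axin, Apc, Gsk3) from marking β-catenin for degradation, and β-catenin then works in the nucleus with Tcf and Lef factors. R-spondins raise the number of Frizzleds at the cell surface. Sfrp, Frzb, Wif1, Notum and most Dkk proteins act outside the cell on the ligand or the coreceptor. Axin2, Nkd1 and Notum are textbook feedback genes that β-catenin switches on in many cell types. In the embryonic mesenchyme from which MEFs derive, Wnt signals pattern limb, skin, cartilage and bone. Tip60, encoded by Kat5, is the catalytic subunit of a large acetyltransferase complex that acts on histones and on the DNA damage kinase ATM.

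Library totals ran from 2187168 counts (KO day 3 replicate 3) to 39203154 (KO day 3 replicate 2). Kat5 itself was at 31.5 to 32.3 CPM (read counts scaled to library size by the TMM method) in controls at day 3 and 18.3 to 21.1 in KO, and at 29.8 to 32.1 against 17.3 to 19.9 at day 5; the log2 fold changes, given throughout as KO minus control ± SE, were -0.68 ± 0.086 (adjusted p = 2.02e-05) at day 3 and -0.75 ± 0.071 (adjusted p = 1.59e-06) at day 5. These counts are at gene level. Whether the remaining reads came from outside the deleted part or from cells without the deletion was not tested. Of the 10 fibroblast markers examined all were measured, with a summed level of 29828 to 52513 CPM. On the first principal component over all genes, which held 53% of the variance, control day 5 replicate 4 lay at -0.1, between the other day 5 controls (-39.7 to -33) and the KO libraries (26.1 to 58.9). This library is the only control of litter 2 and the only male control, and results whose call changes, or whose fold moves by over 1.5 times, when it is left out are also given without it. In bulk RNA, fewer cells of a type and less RNA per cell cannot be told apart.

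Promoter stretches of 3 genes are shown to give the sequence context of an antagonist, a feedback gene and a ligand whose levels rose together at both days. Each is the 250 bases before a transcript start in the RefSeq promoter table for build GRCm38.p6 (the same assembly as mm10), 5′ to 3′ on the plus strand. That start lies inside the gene span counted in the files for Axin2 and Wnt11, and at its first base for Wif1. Wif1 at chr10:121033754-121034003 is the antagonist with the largest fold change at day 3; Axin2 at chr11:108920099-108920348 and Wnt11 at chr7:98834862-98835111 were chosen after their values were seen. Capitals mark a match to ATCAAAG, a core Tcf/Lef binding motif, searched on both strands (reverse complement CTTTGAT).
Wif1: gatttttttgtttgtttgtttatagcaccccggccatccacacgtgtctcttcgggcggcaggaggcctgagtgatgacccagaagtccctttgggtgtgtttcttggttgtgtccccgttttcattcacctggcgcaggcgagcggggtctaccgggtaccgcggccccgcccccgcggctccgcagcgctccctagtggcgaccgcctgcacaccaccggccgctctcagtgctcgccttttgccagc
Axin2: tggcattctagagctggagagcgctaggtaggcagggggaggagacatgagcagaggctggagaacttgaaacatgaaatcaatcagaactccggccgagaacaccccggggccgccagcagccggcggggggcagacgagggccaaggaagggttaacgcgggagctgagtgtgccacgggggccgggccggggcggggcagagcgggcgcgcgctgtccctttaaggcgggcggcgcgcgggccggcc
Wnt11: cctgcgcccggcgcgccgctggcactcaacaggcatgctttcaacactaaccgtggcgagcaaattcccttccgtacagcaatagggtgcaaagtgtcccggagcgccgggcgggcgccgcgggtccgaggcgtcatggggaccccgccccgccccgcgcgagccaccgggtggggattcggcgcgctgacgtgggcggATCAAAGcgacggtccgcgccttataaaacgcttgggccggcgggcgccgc
The match in the Wnt11 promoter lay 51 to 45 bases before the start. Promoter windows of 300 bases (250 before to 50 after the start) were found for 33 of the 50 members, as 39 windows. The motif was in 2 of these 39 windows (5.13%), one of Wnt11 and one of Wnt5b, against 3.73% of all 32851 windows in the table, and a match in such a window is a description of letters and no more.

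Of the 50 members, 38 passed the filter on low counts, and most of those stood higher in KO cells. In edgeR's quasi-likelihood test 25 of the 38 rose and 1 fell at day 3 (adjusted p under 0.05, called below), where 50.9% of all 14327 genes tested were called, 24.6% higher and 26.2% lower. At day 5, 21 rose and 2 fell, where 52.5% of all genes were called, 26.3% higher and 26.2% lower. The median log2 fold change of the tested members was 1.16 at day 3 and 1.02 at day 5, beside a median of -0.004 and 0.021 over all genes tested. As shares, 65.8% of the tested members were called higher at day 3 and 55.3% at day 5. The filter keeps a gene that is expressed in enough libraries of one group, so a member can have passed through the group in which it is high; with no filter 47 members were tested, with 24 called higher and 2 lower (Lrp5 and Wnt7b) at day 3 and 20 higher and 2 lower (Lrp5 and Dkk1) at day 5. The day 3 and day 5 comparisons use different libraries, although embryos recur. On both days the same 20 members rose: Wnt2b, Wnt6, Wnt10b, Wnt11, Fzd1, Fzd3, Fzd4, Fzd7, Fzd8, Fzd10, Lrp6, Rspo2, Dkk3, Notum, Sfrp1, Sfrp2, Sfrp4, Wif1, Axin2 and Nkd1. Lrp5 was called lower on both days. Wnt2, Wnt5b, Wnt16, Fzd2 and Fzd5 were called higher at day 3, Fzd9 higher at day 5 and Dkk2 lower at day 5. At day 3 the KO and control values did not overlap for 31 of the 38 members (28 higher, 3 lower), against 57.8% of all genes. At day 5 they did not overlap for 18 of the 38 (17 higher, 1 lower). That share is the same as the 47.4% of all genes. For all genes these shares were not split by direction.

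**Figure D1:**
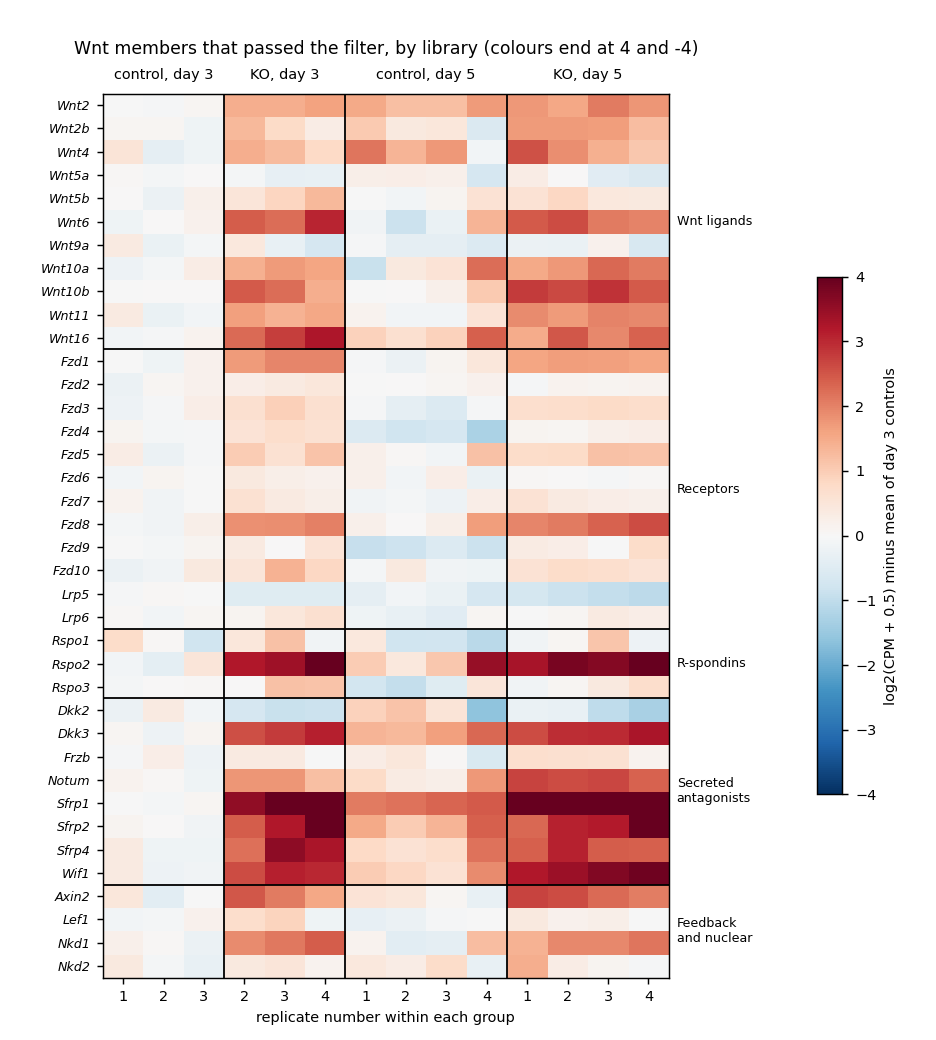
Each cell is the log2(CPM + 0.5) of one member in one library minus the mean of the 3 day 3 controls, with libraries in columns by group and replicate number and members in rows by role; the colour scale ends at a difference of 4 in either direction. The Sfrp, Wif1, Rspo2 and Dkk3 rows are red in the KO columns, and the column of control day 5 replicate 4 is nearer to KO than the other controls in several rows.

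**Figure D2:**
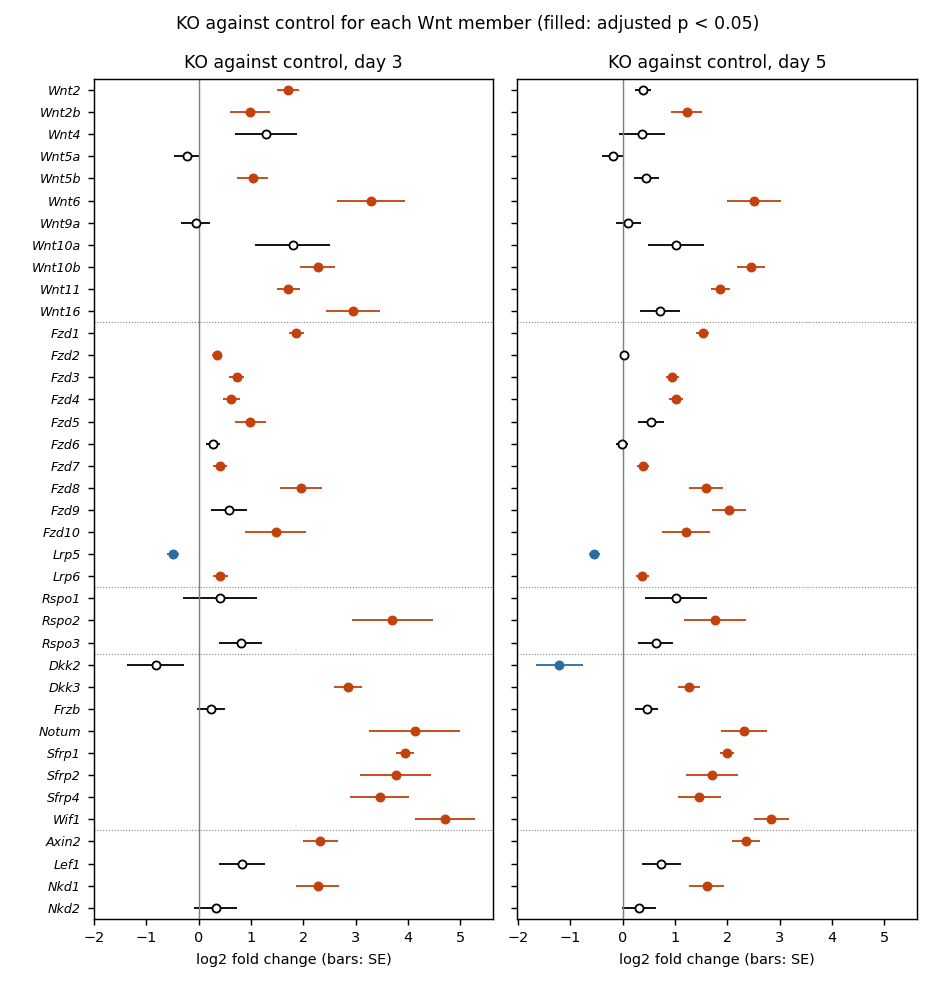
Log2 fold change of KO against control at day 3 (left, 3 against 3 libraries) and day 5 (right, 4 against 4), with the standard error as bars; filled points passed an adjusted p of 0.05, red higher and blue lower in KO. At day 3, 25 members are filled red and 1 blue; at day 5, 21 and 2.

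Cartilage genes moved in the same libraries as many of the members. Of 10 cartilage markers 9 were tested, and 7 rose at day 3 and 6 at day 5 (median log2 fold change 4.33 and 2.00). Their summed level was 83.6 to 176 CPM in day 3 controls, 2324 to 2723 in KO at day 3, 189 to 364 in day 5 control replicates 1 to 3, 2615 in control replicate 4, and 1852 to 3840 in KO at day 5. Col2a1, the main collagen of cartilage, was the largest part of that sum in every library but control day 3 replicate 2 (26.2 CPM, with Sox9 at 45.4), Matn1 was at or below 0.201 CPM in every library, and Cnmd was at 0 in every control library except replicate 4 of day 5. Bone markers moved too, at a far lower level: all 3 of the 6 that were tested (Sp7, Alpl and Runx2) rose on both days, while the sum of the list was 37.6 to 39.8 CPM in day 3 controls and 52.6 to 57.7 in KO, and 38.7 to 49.7 against 55.6 to 60.9 at day 5. Without control replicate 4, 8 cartilage markers rose at day 5 (median 3.63). Of 5 smooth muscle markers 4 rose at day 3 and 0 at day 5, 3 rose in controls between the days, and 3 had a smaller KO effect at day 5. Their summed level was 3655 to 6494 CPM in day 3 controls, 7211 to 9806 in KO at day 3, 7178 to 8978 in day 5 controls and 7928 to 10289 in KO at day 5. Of 6 macrophage markers 3 fell at day 3, at sums of 49.2 to 70.6 CPM against 36.2 to 44.7. Of the 10 fibroblast markers 4 rose and 1 fell at day 3, and 3 rose and 4 fell at day 5. The part of these cell type markers in the Wnt results was not tested.

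Per length of transcript (CPM per kb, using the gene lengths in the files), the members ordered differently in the 2 genotypes. In day 3 controls the highest were Fzd7 at 35.8 ± 3.67 CPM per kb (SD, n = 3), Fzd2 at 33.1 ± 4.72 and the ligand Wnt5a at 32.5 ± 1.57, levels that do not differ beyond their spread. Fzd1 followed at 24.0 ± 2.88, then Dkk3 (20.02 ± 2.43) and Lrp5 (20.01 ± 0.671), neighbours within their spread. In KO cells at day 3 Dkk3 led at 144 ± 26.9, followed by Fzd1 at 87.4 ± 8.22 and Sfrp1 at 64.1 ± 13.2, whose ranges of mean ± SD do not meet. At day 5 Dkk3 led in both groups, at 65.4 ± 23.3 in controls and 157 ± 28.6 in KO (SD, n = 4); in KO it was followed by Sfrp1 (80.7 ± 13.3) and Fzd1 (73.7 ± 2.40), which do not differ beyond their spread. Summed by role, the 11 antagonists differed most in level between the genotypes: from 44.4 to 47.2 CPM per kb in day 3 controls to 198 to 306 in KO, and from 111 to 144 in day 5 controls to 234 to 315 in KO. The 12 receptors summed to 140 to 154 against 236 to 255 at day 3 and 133 to 169 against 215 to 222 at day 5. The 19 ligands summed to 43.0 to 49.0 against 70.1 to 75.2, and 52.5 to 60.5 against 65.5 to 85.8. For the 4 R-spondins the sums were 9.60 to 11.6 against 39.1 to 80.6 at day 3, and at day 5 the control range of 7.96 to 47.8 overlapped the KO range of 40.7 to 79.6. The 4 feedback genes summed to 3.45 to 5.16 against 10.0 to 11, and 4.51 to 5.51 against 9.54 to 13.8.

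Among the ligands, 11 of 19 were tested, and 7 rose at day 3 and 4 at day 5, with the remaining tested ligands not called. The 4 that rose on both days were Wnt6, Wnt10b, Wnt11 and Wnt2b. Values are listed in replicate order, which is 1 to 3 for control day 3, 2 to 4 for KO day 3 and 1 to 4 for both day 5 groups. Wnt10b (chr15:98770712-98778206), a ligand that favours bone over fat formation in mesenchymal precursors, was at 2.97, 3.04 and 3.08 CPM in day 3 controls and 18.7, 15.97 and 9.16 in KO. At day 5 it was at 3.03, 3.06, 3.58 and 6.84 in controls and 24.2, 21.5, 25.6 and 18.98 in KO. All KO libraries were above all controls on both days, and control replicate 4 was the highest control but below every KO value. For Wnt10b the log2 fold changes were 2.27 ± 0.33 (adjusted p = 7.56e-05) and 2.45 ± 0.26 (adjusted p = 5.23e-06).

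Wnt6 (chr1:74754342-74785322), known from epithelial and somite development, was near the floor in controls, at 0.571, 0.701 and 0.840 CPM at day 3 and 0.579, 0.156, 0.489 and 2.55 at day 5. In KO it was at 5.86, 5.17 and 9.46 and 6.12, 6.82, 4.52 and 4.26. The groups did not overlap on either day, and the log2 fold changes were 3.29 ± 0.65 (adjusted p = 0.00093) and 2.51 ± 0.51 (adjusted p = 0.00116); without control replicate 4 the day 5 value was 3.83 ± 0.38 (adjusted p = 7.92e-07). Wnt11 (chr7:98835084-98854747), a ligand of cell movement and planar polarity whose promoter is printed above, was at 3.88, 2.34 and 2.61 in day 3 controls and 10.02, 8.45 and 9.46 in KO. Its day 5 values were 3.22, 2.65, 2.61 and 4.44 and 11.96, 10.5, 12.8 and 12.3. Again every KO library exceeded every control, with log2 fold changes of 1.71 ± 0.22 (adjusted p = 2.91e-05) and 1.87 ± 0.18 (adjusted p = 2e-06). Wnt2b (chr3:104944805-104961709) was at 3.88, 3.89 and 3.17 in day 3 controls, 9.60, 6.58 and 4.53 in KO, 7.98, 4.93, 5.21 and 2.25 in day 5 controls and 12.9, 13.1, 12.6 and 9.33 in KO. Control replicate 4 was the lowest day 5 control for this ligand, away from KO. Its log2 fold changes were 0.98 ± 0.37 (adjusted p = 0.0419) and 1.23 ± 0.30 (adjusted p = 0.00335); the day 3 call was lost when any of 5 libraries (all but KO replicate 4) was left out, with adjusted p up to 0.368 without KO replicate 2.

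The ligands Wnt2, Wnt16 and Wnt5b were called at day 3 and not at day 5. Wnt16 (chr6:22288178-22298522), a ligand of joints and bone, was at 3.20, 3.35 and 3.92 CPM in day 3 controls and 18.5, 26.8 and 36.8 in KO. At day 5 control replicates 1 to 3 were at 7.08, 5.71 and 7.01 while replicate 4 reached 20.4, within the KO values of 10.7, 21.7, 14.6 and 19.8. The log2 fold changes were 2.95 ± 0.51 (adjusted p = 0.00053) and 0.71 ± 0.39 (adjusted p = 0.139), and 1.34 ± 0.28 (adjusted p = 0.00138) at day 5 without control replicate 4, the library with a cartilage sum of 2615 CPM. Wnt2 (chr6:17985474-18032772), a ligand of lung and placental mesenchyme, was at 2.05, 2.02 and 2.24 in day 3 controls and 6.59, 6.58 and 7.45 in KO, and at 6.95, 5.45, 5.54 and 8.07 against 8.08, 7.17, 10.6 and 8.33 at day 5. The groups were separate at day 3 and overlapped at day 5 through control replicate 4, the other day 5 controls lying below every day 5 KO library. Its log2 fold changes were 1.71 ± 0.22 (adjusted p = 2.12e-05) and 0.39 ± 0.16 (adjusted p = 0.0506), the second becoming 0.51 ± 0.16 (adjusted p = 0.0122) without control replicate 4 and reaching an adjusted p of 0.0338 without KO replicate 2. Wnt5b (chr6:119432531-119544824) was at 2.40, 1.95 and 2.80 against 3.53, 4.70 and 6.54 at day 3 and 2.32, 2.18, 2.61 and 3.78 against 3.78, 4.55, 3.35 and 3.26 at day 5. Its values were separate at day 3 and overlapped at day 5 through control replicate 4, with log2 fold changes of 1.03 ± 0.29 (adjusted p = 0.00965) and 0.46 ± 0.24 (adjusted p = 0.121). Without KO replicate 4 the day 3 call was lost (adjusted p = 0.081), and without control replicate 4 the day 5 value was 0.67 ± 0.24 (adjusted p = 0.0247).

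Wnt4 (chr4:137277635-137299501), a ligand of kidney and gonad development, was called in controls between the days and, with all libraries in 1 fit, in neither KO comparison. It was at 5.48, 2.73 and 3.17 CPM in day 3 controls, 10.9, 9.39 and 6.64 in KO, 17.8, 10.1, 13.4 and 3.35 in day 5 controls and 23.6, 14.6, 10.5 and 8.20 in KO. Day 3 groups did not overlap, but the log2 fold change was 1.29 ± 0.59 (adjusted p = 0.0863), and 0.38 ± 0.44 (adjusted p = 0.491) at day 5. The day 3 difference was called in 5 of 14 alternatives, among them DESeq2 (adjusted p = 0.0262) and the fit of only the groups compared (0.0036). Wnt5a, the ligand highest per length and the one best known for signalling without β-catenin, ranged from 89.2 to 175 CPM over all libraries. Its log2 fold changes were -0.23 ± 0.25 (adjusted p = 0.477) and -0.19 ± 0.21 (adjusted p = 0.482), and control replicate 4, at 89.2, was the lowest day 5 control by far. Wnt9a ranged from 7.55 to 16.4 CPM with log2 fold changes of -0.06 ± 0.28 (adjusted p = 0.887) and 0.11 ± 0.23 (adjusted p = 0.719). Wnt10a ranged from 0.579 to 9.50 CPM, with 1.79 ± 0.72 (adjusted p = 0.0542) and 1.02 ± 0.53 (adjusted p = 0.126); control replicate 4, at 9.02 CPM, lay among the KO libraries, and without it the day 5 value was 2.16 ± 0.34 (adjusted p = 8.99e-05). At day 3 Wnt10a was called by DESeq2 (adjusted p = 0.00959), with only the groups compared (0.000338), with the replicate number as a block (0.000347) and without the shallowest library and control replicate 4 (0.00338).

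**Figure D3:**
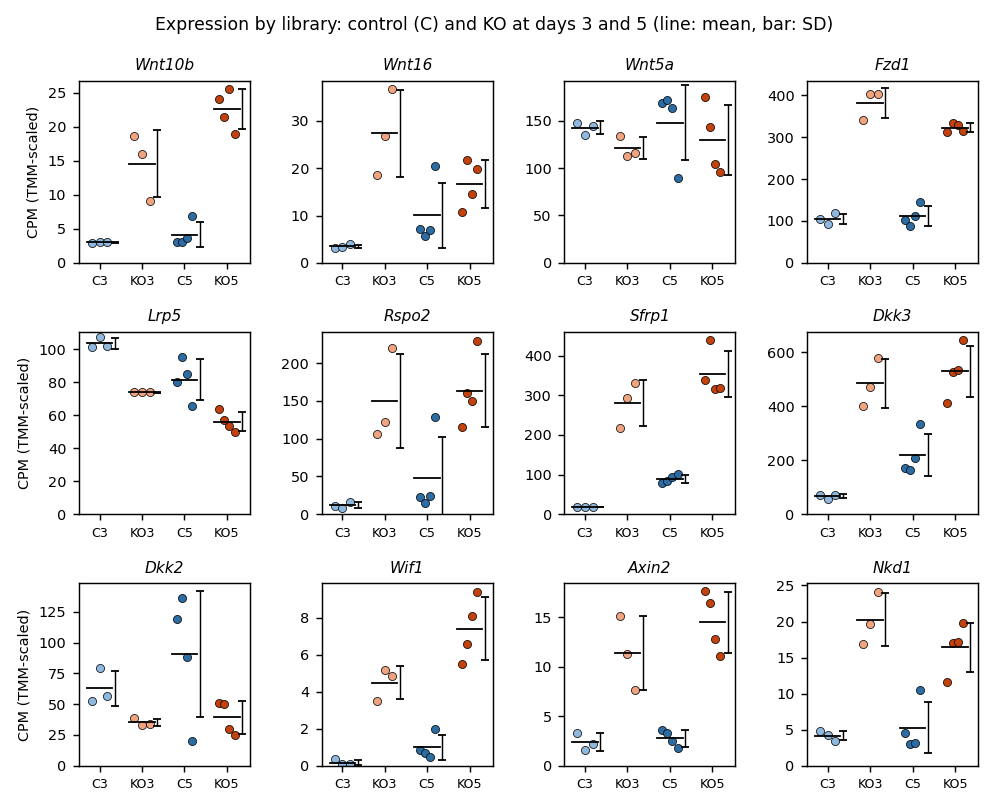
CPM of 12 members in each library (points), with the group mean (line) and SD (bar, offset to the right), for control (C3, C5) and KO (KO3, KO5) at days 3 and 5. Wnt10b, Fzd1, Sfrp1, Dkk3, Wif1, Axin2 and Nkd1 show KO points above all control points on both days, Lrp5 shows the reverse, and one control point at day 5 sits high for Wnt16 and Rspo2 and low for Wnt5a and Dkk2.

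All 12 receptor and coreceptor genes were tested; 9 rose and 1 fell at day 3, and 8 rose and 1 fell at day 5. The largest day 3 fold changes among those called were in Fzd8 and Fzd1, and at day 5 Fzd9 was above both. Fzd1 (chr5:4753839-4758216), with Fzd2 and Fzd7 one of a closely related trio, was at 104, 92.98 and 118 CPM in day 3 controls and 341, 403 and 403 in KO. At day 5 it was at 102, 88.2, 112 and 144 in controls and 312, 334, 328 and 316 in KO. Every KO library was far above every control of its day, control replicate 4 included. Log2 fold changes were 1.86 ± 0.15 (adjusted p = 4.25e-07) and 1.53 ± 0.13 (adjusted p = 4.75e-07). Fzd8 (chr18:9212856-9216201), which with Fzd5 forms another subgroup, was at 10.96, 10.5 and 13.6 against 42.9, 43.2 and 49.01 at day 3. Its day 5 values were 13.45, 11.8, 13.9 and 37.8 in controls and 46.5, 51.2, 61.5 and 74.03 in KO. The groups did not overlap, although control replicate 4 at 37.8 stood far above the other controls. For Fzd8 the log2 fold changes were 1.95 ± 0.40 (adjusted p = 0.00162) and 1.59 ± 0.32 (adjusted p = 0.00141), and 2.17 ± 0.15 (adjusted p = 5.88e-08) at day 5 without that library.

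Fzd7 and Fzd2, which complete the trio, had small differences. Fzd7 (chr1:59482147-59486955) was at 191, 155 and 170 CPM in day 3 controls, 259, 220 and 203 in KO, 156, 161, 148 and 208 in day 5 controls and 255, 220, 207 and 199 in KO. The day 5 groups overlapped through control replicate 4, and the log2 fold changes were 0.41 ± 0.14 (adjusted p = 0.0225) and 0.39 ± 0.12 (adjusted p = 0.0126). Its day 3 call was lost without control replicate 2 (adjusted p = 0.0933), control replicate 3 (0.0601) or KO replicate 2 (0.11). Fzd2 (chr11:102604431-102608058) was at 101, 126 and 133 against 142, 153 and 163 at day 3 and 117, 122, 126 and 135 against 116, 132, 129 and 132 at day 5. Its groups were narrowly separate at day 3 and overlapped at day 5, with log2 fold changes of 0.35 ± 0.10 (adjusted p = 0.0098) and 0.03 ± 0.085 (adjusted p = 0.769). Fzd5 (chr1:64730558-64737750) was at 26.03, 17.9 and 20.4 against 43.7, 32.9 and 47.2 at day 3 and 24.4, 22.01, 19.7 and 48.1 against 35.3, 36.4, 48.04 and 47.8 at day 5, where control replicate 4 exceeded every KO library. Its log2 fold changes were 0.99 ± 0.30 (adjusted p = 0.0165) and 0.54 ± 0.25 (adjusted p = 0.0863). The day 3 call was lost without control replicate 2 (adjusted p = 0.0654), control replicate 3 (0.0508) or KO replicate 4 (0.0582), and without control replicate 4 the day 5 value was 0.91 ± 0.15 (adjusted p = 0.000171).

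Fzd3 (chr14:65192441-65262463), a receptor of planar polarity and axon guidance, was at 15.6, 17.2 and 21.6 CPM in day 3 controls and 28.5, 35.2 and 28.3 in KO, and at 17.5, 13.8, 12.2 and 17.5 against 29.1, 29.4, 31.03 and 29.3 at day 5. It was separate on both days, with log2 fold changes of 0.72 ± 0.15 (adjusted p = 0.000987) and 0.95 ± 0.12 (adjusted p = 2.37e-05). Fzd6, its closest relative, ranged from 13.6 to 21.4 CPM and was not called, at 0.27 ± 0.14 (adjusted p = 0.11) and -0.01 ± 0.11 (adjusted p = 0.924). Fzd4 (chr7:89404366-89410110), also the receptor for Norrin in the retinal vasculature, was at 11.5, 9.97 and 10.3 against 15.6, 17.4 and 16.4 at day 3 and 7.02, 5.81, 6.52 and 4.15 against 11.3, 11.3, 12.1 and 12.8 at day 5. Every KO library was above every control of its day, both genotypes were lower at day 5 than at day 3, and control replicate 4 was the lowest of all. The log2 fold changes were 0.62 ± 0.16 (adjusted p = 0.00488) and 1.02 ± 0.14 (adjusted p = 3.39e-05). Fzd9 (chr5:135248938-135251047) was at 0.913, 0.857 and 1.03 against 1.35, 0.939 and 1.61 at day 3 and 0.257, 0.311, 0.489 and 0.291 against 1.29, 1.21, 0.914 and 1.88 at day 5. Day 5 controls held 17 Fzd9 reads in all and KO 102. KO levels overlapped between the days while day 5 controls were lower than day 3 controls, giving 0.57 ± 0.34 (adjusted p = 0.176) and 2.04 ± 0.32 (adjusted p = 0.000133); the difference between these 2 effects was not called (adjusted p = 0.054). Fzd10 (chr5:128601106-128604093) stayed under 1.5 CPM, at 0.114, 0.156 and 0.467 against 0.528, 1.41 and 0.805 and 0.193, 0.467, 0.163 and 0.145 against 0.595, 0.710, 0.660 and 0.564. The groups were separate, but the log2 fold changes of 1.47 ± 0.59 (adjusted p = 0.0496) and 1.21 ± 0.45 (adjusted p = 0.035) rest on few reads. The day 3 call was lost without control replicate 1 (adjusted p = 0.135), control replicate 2 (0.164), KO replicate 3 (0.0836) or KO replicate 4 (0.115), and the day 5 call in 5 of the 6 alternatives in which it was tested. These were without control replicate 3 (0.0661), with no filter (0.0538), with sex as a covariate (0.0744), by DESeq2 (0.0748) and without the shallowest library and control replicate 4 (0.0794). With no filter, sex as a covariate or DESeq2 the day 3 call was lost too (0.0651, 0.078 and 0.0754).

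The 2 coreceptors went opposite ways. Lrp5 (chr19:3584825-3686585), best known for its part in bone mass, was at 101, 107 and 102 CPM in day 3 controls and 73.8, 73.7 and 74.3 in KO, and at 80.3, 94.98, 85.2 and 65.3 against 63.6, 57.3, 53.3 and 49.98 at day 5. It was the one receptor called lower on both days, without overlap, at -0.49 ± 0.12 (adjusted p = 0.00316) and -0.54 ± 0.099 (adjusted p = 0.00044). Control replicate 4 was the lowest of the day 5 controls, and without it the day 5 value was -0.63 ± 0.080 (adjusted p = 8.36e-06). Kat5, the deleted gene, lies on the same chromosome as Lrp5, at chr19:5603014-5611556. The part of this linkage in the Lrp5 difference was not tested. Lrp6 (chr6:134446476-134566913) was at 170, 154 and 173 against 180, 227 and 256 at day 3 and 145, 134, 122 and 175 against 162, 174, 213 and 200 at day 5. KO values were higher but overlapped control replicate 4 at day 5, with log2 fold changes of 0.41 ± 0.15 (adjusted p = 0.03) and 0.38 ± 0.13 (adjusted p = 0.021). The day 3 call was lost when any library but KO replicate 2 was left out (adjusted p from 0.0511 without control replicate 3 to 0.139 without KO replicate 4). The day 5 call was lost without control replicate 2 (0.0603), control replicate 3 (0.0687), KO replicate 3 (0.0681) or KO replicate 4 (0.0549). With sex as a covariate Lrp6 was at 0.20 at day 3 (adjusted p = 0.199) and 0.23 at day 5 (0.0714).

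Of the 4 R-spondins, which bind Lgr receptors and keep Frizzleds at the membrane, 3 were tested and Rspo2 was called on both days. Rspo2 (chr15:43020788-43171594), known from limb and lung development, was at 10.4, 8.41 and 16.1 CPM in day 3 controls and 106, 122 and 220 in KO. At day 5 control replicates 1 to 3 were at 23.2, 15.3 and 24.3 and replicate 4 at 129, against 115, 161, 150 and 229 in KO. Day 3 groups were far apart, and at day 5 the overlap came from control replicate 4. The cartilage sum of that library, mostly Col2a1, was also within the KO range. For Rspo2 the log2 fold changes were 3.70 ± 0.78 (adjusted p = 0.00205) and 1.76 ± 0.59 (adjusted p = 0.0262), and 3.00 ± 0.36 (adjusted p = 3.89e-05) at day 5 without replicate 4. With that library kept, the day 5 call was lost without control replicate 1 (adjusted p = 0.0665), 2 (0.058) or 3 (0.0643) or KO replicate 4 (0.0652). Rspo3 ranged from 7.47 to 34.3 CPM, with 0.80 ± 0.41 (adjusted p = 0.117) and 0.63 ± 0.34 (adjusted p = 0.14). It was called at day 3 without KO replicate 2 (log2 fold change 1.17, adjusted p = 0.0287) and at day 5 without control replicate 4, at 1.09 ± 0.30 (adjusted p = 0.00767). Rspo1 ranged from 0.291 to 3.29 CPM, with 0.40 ± 0.71 (adjusted p = 0.663) and 1.02 ± 0.60 (adjusted p = 0.166), and 1.94 (adjusted p = 0.0227) at day 5 without control replicate 1.

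The 4 largest fold changes of the set at day 3 were those of the secreted antagonists Wif1, Notum, Sfrp1 and Sfrp2. Of 11 members 8 were tested; 6 rose at day 3, and 6 rose and 1 fell at day 5, with a median log2 fold change of 3.61 and 1.59. Sfrp1 (chr8:23411383-23449632), which binds Wnts through a Frizzled-like domain, was at 17.9, 17.3 and 19.4 CPM in day 3 controls and 217, 293 and 330 in KO. At day 5 it was at 78.5, 82.8, 93.2 and 101 in controls and 339, 438, 316 and 317 in KO. The groups were far apart on both days, day 5 controls lay between day 3 controls and KO, and control replicate 4 at 101 was close to the other controls. Log2 fold changes were 3.94 ± 0.18 (adjusted p = 6.55e-09) and 1.99 ± 0.14 (adjusted p = 1.62e-07). Dkk3 (chr7:112116019-112159482), a divergent Dickkopf and the member highest per length in 3 of the 4 groups, was at 71, 57.9 and 72.8 against 401, 472 and 580 at day 3. Its day 5 values were 172, 164, 210 and 333 against 411, 526, 533 and 645. All KO libraries exceeded all controls, with replicate 4 the highest control at 333, and the log2 fold changes were 2.85 ± 0.27 (adjusted p = 4.12e-06) and 1.27 ± 0.22 (adjusted p = 0.000387).

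Wif1 (chr10:121034004-121100642), which captures Wnts directly, was at 0.342, 0.0779 and 0.0933 CPM in day 3 controls and 3.51, 5.17 and 4.83 in KO, and at 0.837, 0.675, 0.489 and 1.96 against 5.53, 6.61, 8.12 and 9.39 at day 5. Day 3 controls held 5 Wif1 reads in all and KO 192. The Wif1 level was low but separate in every KO library, with log2 fold changes of 4.71 ± 0.58 (adjusted p = 1.69e-05) and 2.84 ± 0.34 (adjusted p = 1.11e-05). Without control replicate 4 the day 5 value was 3.38 ± 0.30 (adjusted p = 2.54e-07). Notum (chr11:120653788-120661193), a secreted esterase that strips the lipid from Wnts, was at 0.114, 0.0779 and 0.00 against 1.42, 1.41 and 0.805 at day 3 and 0.451, 0.208, 0.163 and 1.38 against 3.15, 2.91, 3.10 and 2.38 at day 5. Day 3 controls held 2 reads in all and KO 65, a ratio of 21.0 in scaled level (95% exact interval 5.59 to 177, counting error only). The fitted log2 fold changes were 4.12 ± 0.88 (adjusted p = 0.00138) and 2.32 ± 0.44 (adjusted p = 0.000592); control replicate 4, at 1.38 CPM, stood between the other controls and KO, and without it the day 5 value was 3.27 ± 0.38 (adjusted p = 3.44e-06).

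Sfrp2 (chr3:83765750-83774314) was at 3.20, 2.96 and 2.61 CPM in day 3 controls and 17.9, 31 and 69.3 in KO, and at 9.27, 6.44, 8.31 and 17.2 against 16.3, 28.2, 30.01 and 61.8 at day 5. KO libraries spread widely, the day 5 groups overlapped between control replicate 4 and KO replicate 1, and the log2 fold changes were 3.76 ± 0.68 (adjusted p = 0.000794) and 1.71 ± 0.49 (adjusted p = 0.0124), the second 2.09 ± 0.56 (adjusted p = 0.00796) without that control. Sfrp4 (chr13:19623175-19632825), a regulator of bone remodelling, was at 1.71, 1.01 and 1.03 against 7.36, 20.2 and 16.1 and 2.51, 2.08, 2.28 and 7.27 against 8.61, 13.9, 8.73 and 8.58. Groups were separate on both days, replicate 4 being the highest day 5 control, with log2 fold changes of 3.45 ± 0.56 (adjusted p = 0.000255) and 1.47 ± 0.40 (adjusted p = 0.00829), and 2.11 ± 0.33 (adjusted p = 9.7e-05) at day 5 without it. Frzb, the founding Sfrp of cartilage, ranged from 3.78 to 10.04 CPM and was not called, at 0.24 ± 0.27 (adjusted p = 0.488) and 0.46 ± 0.22 (adjusted p = 0.0917); at day 5 it passed without control replicate 2 (adjusted p = 0.0414) or KO replicate 4 (0.0473).

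Dkk2 (chr3:132085266-132180304), which blocks the Lrp coreceptors, was the one antagonist called lower in KO among those that passed the filter. It was at 52.9, 79.1 and 56.9 CPM in day 3 controls, 38.8, 33.3 and 33.7 in KO, 119, 136, 88.2 and 19.9 in day 5 controls and 51.2, 50.4, 30.2 and 25.2 in KO. At day 3 all KO values were below all controls; at day 5 control replicate 4, at 19.9, was below every KO library. The log2 fold changes were -0.82 ± 0.54 (adjusted p = 0.225) and -1.21 ± 0.45 (adjusted p = 0.0401), and -1.55 ± 0.26 (adjusted p = 0.000404) at day 5 without control replicate 4. With it, the day 5 call was lost without any of control replicates 1 to 3 or KO replicates 3 or 4 (adjusted p 0.0603 to 0.121), and with sex as a covariate (log2 fold change -0.53, adjusted p = 0.398).

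Among the 4 feedback and nuclear genes, Axin2 and Nkd1 rose on both days. Axin2 (chr11:108917828-108950783), a scaffold of the destruction complex and the most used reporter of β-catenin activity, was at 3.31, 1.56 and 2.24 CPM in day 3 controls and 15.2, 11.3 and 7.65 in KO. At day 5 it was at 3.60, 3.27, 2.44 and 1.75 in controls and 17.6, 16.5, 12.8 and 11.1 in KO. The groups did not overlap, and control replicate 4 was the lowest day 5 control, away from KO. The log2 fold changes were 2.33 ± 0.34 (adjusted p = 7.96e-05) and 2.36 ± 0.27 (adjusted p = 9.79e-06), and 2.17 ± 0.27 (adjusted p = 1.01e-05) without replicate 4. Nkd1 (chr8:88521342-88594887), which binds Dishevelled and dampens the signal, was at 4.79, 4.28 and 3.45 against 16.9, 19.7 and 24.2 at day 3 and 4.57, 2.96, 3.10 and 10.5 against 11.6, 17.05, 17.2 and 19.8 at day 5. It was separate on both days, with control replicate 4 just under the lowest KO library, at 2.27 ± 0.41 (adjusted p = 0.00054) and 1.61 ± 0.33 (adjusted p = 0.00131), and at 2.18 ± 0.22 (adjusted p = 1.02e-06) at day 5 without that library. Nkd2, its paralog, ranged from 6.07 to 21.7 CPM, with 0.32 ± 0.41 (adjusted p = 0.533) and 0.31 ± 0.33 (adjusted p = 0.446). Lef1, a DNA-binding partner of β-catenin, ranged from 0.322 to 1.41 CPM, with 0.82 ± 0.44 (adjusted p = 0.127) and 0.74 ± 0.37 (adjusted p = 0.107); without KO replicate 4 its day 3 value was 1.19 (adjusted p = 0.0279).

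The 12 members that did not pass the filter were Wnt1, Wnt3, Wnt3a, Wnt7a, Wnt7b, Wnt8a, Wnt8b, Wnt9b, Rspo4, Dkk1, Dkk4 and Sfrp5. Dkk1, a coreceptor antagonist, was at 0.228, 0.0779 and 0.00 CPM in day 3 controls, 0.343, 0.470 and 0.201 in KO, 1.61, 0.571, 1.47 and 0.582 in day 5 controls and 0.280, 0.0710, 0.355 and 0.376 in KO. Its groups overlapped at day 3, and at day 5 every KO library was below every control. With no filter its day 5 value was -1.84 ± 0.51 (adjusted p = 0.00805). Wnt7b was at 1.37, 0.623 and 0.840 in day 3 controls and 0.369, 0.00 and 0.201 in KO, and with no filter its day 3 value was -1.60 ± 0.59 (adjusted p = 0.0424). Wnt7a reached 0.623 CPM in its highest library. With no filter it was called higher in KO at day 5, on 1 read in controls and 15 in KO. The levels of Wnt1, Wnt3, Wnt8a, Wnt8b, Dkk4 and Sfrp5 stayed at or below 0.163. Wnt3a, Wnt9b and Rspo4 had no count in any of the 14 libraries, which allows a level of up to 0.0139 CPM over all libraries together (3 counts). Some of these genes sit beside a member that rose. Wnt10b and Wnt1 lie 11.7 kb apart on chromosome 15, and Wnt1 had 9 counts in all 14 libraries. Wnt6 and Wnt10a lie 6.7 kb apart on chromosome 1, and both have their values above; the difference between them was not tested. Wnt9a and Wnt3a lie 16.1 kb apart on chromosome 11, the first not called on either day and the second without counts.

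Between day 3 and day 5, 13 members were called in controls and 1 in KO cells. With control day 3 replicates 1 and 2, which carry 1 embryo name, summed into 1 library, 10 were called in controls (6 higher, 4 lower). Wnt4 (adjusted p = 0.0644), Rspo2 (0.104), Sfrp2 (0.0942), Sfrp4 (0.0725) and Wnt16 (0.0677) were lost. Dkk1 and Wnt7b, which then passed the filter, were gained. In controls 10 members were higher and 3 lower at day 5, where 38.3% of all genes were called (18.3% higher, 19.9% lower). In KO cells 1 of 38, Lrp5, was called, lower by the edgeR test, where 12.0% of all genes were called (4.98% higher, 7.06% lower). At an unadjusted p under 0.05, 8 members passed in KO cells (5 higher, 3 lower), and DESeq2 called 2. The shares of all genes at these settings are not given here, so these counts cannot be set against them. The control increases were in Sfrp1 (2.29 ± 0.16 (adjusted p = 2.3e-07)), Dkk3 (1.71 ± 0.25 (adjusted p = 0.000156)), Wif1 (2.65 ± 0.64 (adjusted p = 0.00464)), Wnt2 (1.63 ± 0.20 (adjusted p = 2.34e-05)), Wnt16 (1.53 ± 0.49 (adjusted p = 0.0278)), Notum, Sfrp2, Sfrp4, Rspo2 and Wnt4. The decreases were in Fzd4 (-0.85 ± 0.15 (adjusted p = 0.000493)), Fzd9 (-1.54 ± 0.38 (adjusted p = 0.00483)) and Lrp5 (-0.35 ± 0.11 (adjusted p = 0.0184)). Notum went from 2 to 31 reads over the control libraries, a ratio of 9.16 in scaled level (95% exact interval 2.33 to 79.0). Without control replicate 4 there were 12 day 5 reads and the ratio was 4.74 (1.05 to 43.6). The log2 fold change was then 2.10 ± 0.79 (adjusted p = 0.0453). Some of these calls rested on control replicate 4: without it Rspo2 was at 0.83 (adjusted p = 0.136), Sfrp2 at 1.44 (0.158), Sfrp4 at 0.90 (0.131) and Wnt16 at 0.90 (0.0621), all no longer called. Wnt2b, at 0.74 (0.0434), and Dkk2, at 0.87 (0.0292), were then called higher. Leaving out either day 3 control replicate 2 or 3 also ended the calls of Rspo2, Sfrp2, Sfrp4, Wnt16, Wnt4 and Notum, with adjusted p from 0.0572 for Notum without replicate 2 to 0.137 for Sfrp4 without replicate 2. Without day 3 control replicate 1 the calls of Rspo2 (0.106), Sfrp2 (0.0996), Sfrp4 (0.0573) and Wnt16 (0.0774) were lost, and without replicate 2 that of Lrp5 (0.0673). Among the day 5 controls, Wnt4 was lost without replicate 1 (0.103), 2 (0.0566) or 3 (0.0689), and Sfrp2 without replicate 1 (0.0654) or 3 (0.0583).

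With the embryo as a block, since 5 embryos were sampled on both days, 6 members were called in KO cells between the days. The shares of all genes called, 12.0% in KO cells and 38.3% in controls, are those of the fit without this block. Wif1 was higher at day 5 by 0.87 ± 0.24 (adjusted p = 0.0323), Notum by 1.21 ± 0.34 (adjusted p = 0.0333), Wnt10b by 0.61 ± 0.17 (adjusted p = 0.0313), Wnt2b by 0.75 ± 0.19 (adjusted p = 0.0192) and Fzd8 by 0.45 ± 0.10 (adjusted p = 0.0138). Lrp5 was lower, at -0.47 ± 0.087 (adjusted p = 0.00365). Without the block Lrp5 was at -0.40 ± 0.11 (adjusted p = 0.0271), a call that was lost when any day 3 KO library, or day 5 KO replicate 3 or 4, was left out (adjusted p 0.0618 to 0.0797). In controls the embryo block also called 13 members. It gained Rspo3, lower at -0.67 ± 0.19 (adjusted p = 0.0164), and Wnt2b and Dkk2, higher at 0.93 ± 0.22 (adjusted p = 0.00706) and 0.76 ± 0.20 (adjusted p = 0.0232), and it lost Sfrp4, Notum and Fzd9.

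The KO effect itself differed between the days for 4 of the 38 tested members (10.5%), all with a smaller effect at day 5. Of all genes tested 14.3% differed (7.16% higher, 7.15% lower). The interaction term was -1.95 ± 0.21 (adjusted p = 0.000112) for Sfrp1, -1.58 ± 0.33 (adjusted p = 0.0082) for Dkk3, -1.32 ± 0.27 (adjusted p = 0.00538) for Wnt2 and -2.24 ± 0.64 (adjusted p = 0.0372) for Wnt16. In each of the 4, day 5 controls were higher than day 3 controls, and no change between the days was called in KO. At an unadjusted p under 0.05, 9 members passed, 8 of them with a smaller effect at day 5. The share of all genes at that threshold is not given here, so this count cannot be set against it. For Wnt5b, Fzd2 and Fzd5, called at day 3 and not at day 5, the difference between the days was not called (adjusted p = 0.342, 0.124 and 0.485). Without control day 5 replicate 4 the Wnt16 term was -1.60 ± 0.44 (adjusted p = 0.0233). It was lost with the shared embryo summed (adjusted p = 0.0693), and when any day 3 control, KO day 3 replicate 3 or 4, or KO day 5 replicate 1 or 3 was left out (adjusted p 0.0557 to 0.0916). With the embryo as a block 6 members were called: the same 4 and also Wnt4 (-1.81 ± 0.31 (adjusted p = 0.00356)) and Sfrp2 (-1.46 ± 0.27 (adjusted p = 0.00558)). The 14.3% of all genes is the share in the fit without this block.

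Control day 5 replicate 4 was compared with the other 3 day 5 controls and the 4 KO libraries, member by member. It lay within the KO range and outside the other controls for 11 of the 38 tested members, Rspo2, Wnt16, Wnt10a, Rspo3, Sfrp2, Wnt2, Wnt5b, Wnt9a, Fzd7, Lrp6 and Lef1. For 13 it lay between the other controls and KO, among them Wnt6, Wnt10b, Wnt11, Fzd1, Fzd8, Dkk3, Notum, Sfrp1, Sfrp4, Wif1 and Nkd1. For another 13 it lay outside the other controls and either away from KO or beyond it, among them Axin2, Wnt2b, Fzd4, Fzd10, Wnt4 and Dkk2. Fzd9 was within the other controls. These placements were not counted over all genes. On the first principal component over all genes this library also lay between the other day 5 controls and KO, at -0.1. In this library, with a cartilage sum of 2615 CPM, Rspo2 was at 129 CPM against 115 to 229 in KO, Sfrp1 at 101 against 316 to 438, Fzd1 at 144 against 312 to 334, and Axin2 at 1.75 against 11.1 to 17.6. Leaving this library out raised the number of all genes called at day 5 from 7519 to 8376. Without it, 28 of 37 tested members were called at day 5, 26 higher and 2 lower. These held 22 of the 23 called with all libraries and 6 more: Fzd5, Wnt10a, Rspo3, Wnt2, Wnt16 and Wnt5b; Fzd10 was not tested.

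**Figure D4:**
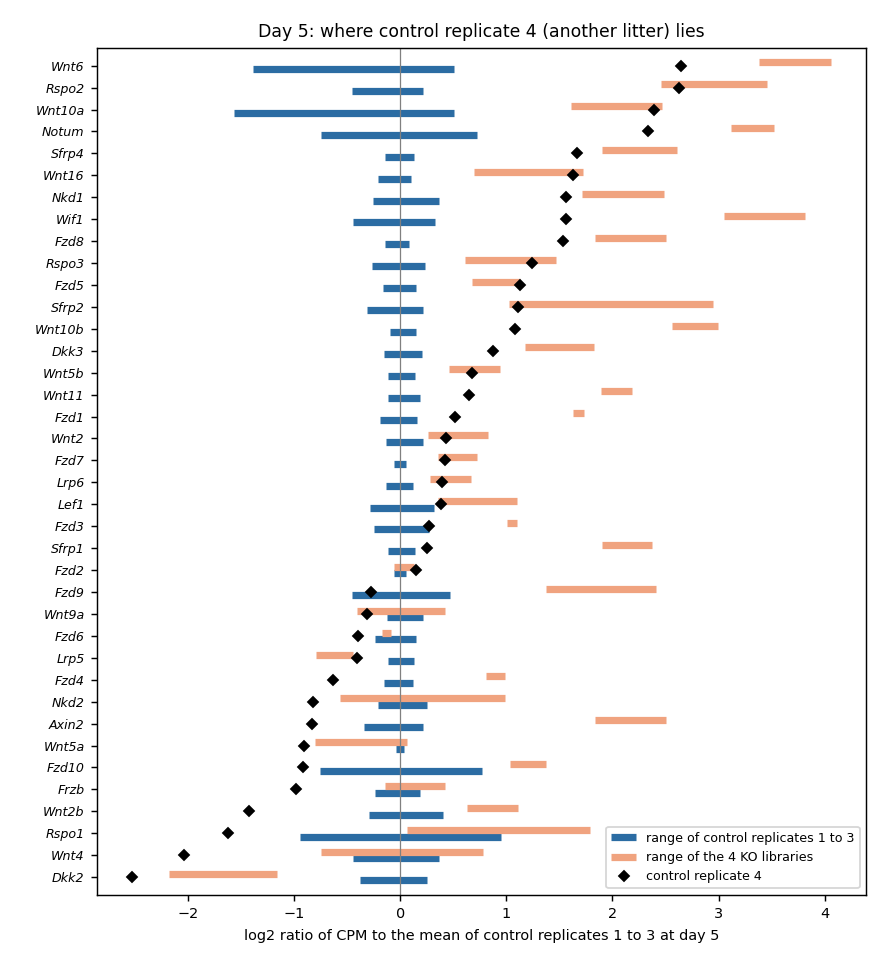
Log2 ratio of CPM to the mean of day 5 control replicates 1 to 3 for each tested member: blue bars span those controls, orange bars the 4 KO libraries, and diamonds mark control replicate 4. Diamonds fall inside the orange bar for Rspo2, Wnt16 and Wnt10a, between the bars for Wif1, Wnt10b and Sfrp1, and on the far side from KO for Axin2, Wnt2b and Fzd4.

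**Figure D5:**
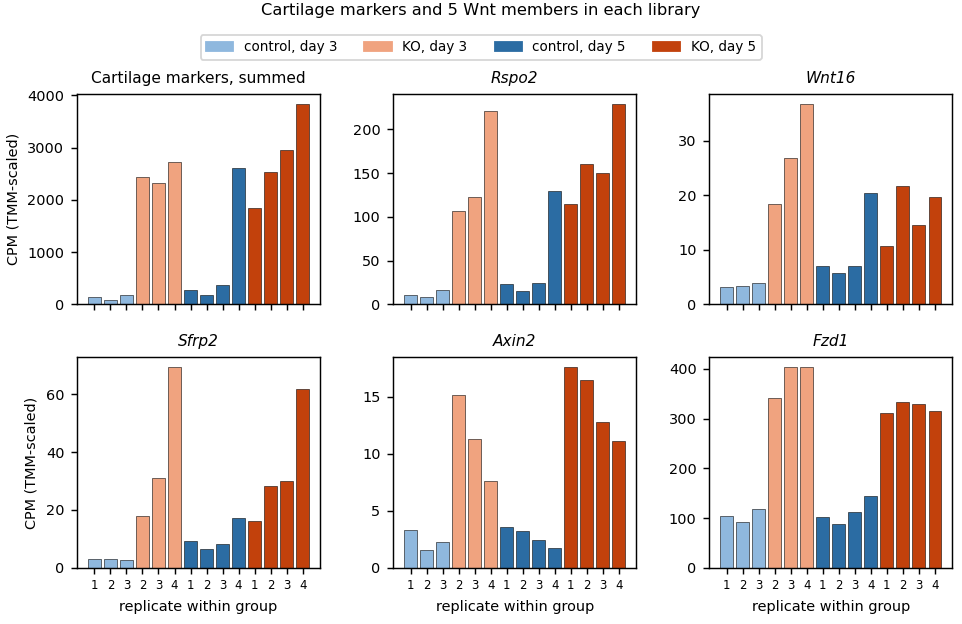
Bars give the summed CPM of 10 cartilage markers and the CPM of 5 members in each library, by replicate within group; bars start at 0. The fourth day 5 control stands with the KO libraries for the cartilage sum, Rspo2 and Wnt16, at the lower edge of KO for Sfrp2, and with the controls for Axin2 and Fzd1.

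Other genes of the pathway were followed in 6 lists of 97 genes in all, and values in brackets or after a gene's name are log2 fold changes at day 3 and then at day 5. Of 19 tested genes for ligand secretion and surface partners, 11 rose at day 3, and 11 rose and 1 fell at day 5 (median log2 fold change 0.61 and 0.59). Wls, the carrier that brings Wnts to the cell surface, rose by 0.63 ± 0.11 (adjusted p = 0.000392) and 0.88 ± 0.098 (adjusted p = 5.91e-06). The R-spondin receptors Lgr5 (2.19 ± 0.32 (adjusted p = 0.000143) and 1.75 ± 0.25 (adjusted p = 0.000112)) and Lgr4 (1.52 ± 0.33 (adjusted p = 0.00258) and 1.08 ± 0.28 (adjusted p = 0.00668)) rose as well, as did Rnf43, the ubiquitin ligase that removes Frizzleds (1.65 ± 0.40 (adjusted p = 0.00326) and 1.22 ± 0.31 (adjusted p = 0.00401)). Gpc3, a glypican, rose by 2.05 ± 0.39 (adjusted p = 0.000975) and 2.07 ± 0.33 (adjusted p = 0.000322), and Ror1, a receptor for Wnt5a, by 3.64 ± 0.48 (adjusted p = 4.41e-05) and 1.24 ± 0.32 (adjusted p = 0.00519). Trabd2b, a membrane protease that cleaves Wnts, rose by 2.54 ± 0.35 (adjusted p = 7.39e-05) and 1.71 ± 0.27 (adjusted p = 0.000222). Ryk was the one of these genes with opposite calls, 0.43 ± 0.097 (adjusted p = 0.00199) and -0.23 ± 0.083 (adjusted p = 0.0296).

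In the cytoplasmic core more genes fell than rose. Of 28 tested genes 5 rose and 11 fell at day 3, and 5 rose and 15 fell at day 5 (median -0.10 and -0.26). β-catenin itself, Ctnnb1, rose by 0.77 ± 0.077 (adjusted p = 3.14e-06) and 0.48 ± 0.067 (adjusted p = 4.52e-05). Dvl1 (-0.87 ± 0.081 (adjusted p = 1.69e-06) and -0.59 ± 0.067 (adjusted p = 7.88e-06)) and Dvl2 (-0.60 ± 0.086 (adjusted p = 6.56e-05) and -0.29 ± 0.073 (adjusted p = 0.00457)), the Dishevelled adaptors, fell, as did the kinases Gsk3a (-0.46 ± 0.092 (adjusted p = 0.000895) and -0.35 ± 0.077 (adjusted p = 0.00177)) and Gsk3b (-0.59 ± 0.086 (adjusted p = 7.56e-05) and -0.29 ± 0.074 (adjusted p = 0.00426)). The casein kinase Csnk1g2 was at -0.48 ± 0.093 (adjusted p = 0.000666) and -0.77 ± 0.080 (adjusted p = 3.44e-06). Axin1, the constitutive counterpart of Axin2, was at -0.32 ± 0.073 (adjusted p = 0.00233) and -0.04 ± 0.062 (adjusted p = 0.593), so it was called lower at day 3 while Axin2 was called higher.

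Among 12 nuclear genes 6 rose and 1 fell at day 3, and 5 rose and 3 fell at day 5; Pygo1 rose (1.23 ± 0.29 (adjusted p = 0.00294) and 1.72 ± 0.25 (adjusted p = 6.56e-05)) while its paralog Pygo2 fell (-0.48 ± 0.081 (adjusted p = 0.000251) and -0.50 ± 0.068 (adjusted p = 3.68e-05)). Of 12 planar polarity genes 6 rose and 1 fell at day 3 and 4 rose at day 5, led by Daam2 (1.81 ± 0.14 (adjusted p = 2.59e-07) and 0.98 ± 0.11 (adjusted p = 5.9e-06)) and Celsr2 (1.06 ± 0.19 (adjusted p = 0.000426) and 1.83 ± 0.17 (adjusted p = 1.31e-06)). The 10 tested genes known as Wnt targets in some cell types split, with 5 higher and 2 lower on each day. Tnfrsf19 rose by 2.98 ± 0.36 (adjusted p = 1.44e-05) and 2.93 ± 0.30 (adjusted p = 2.94e-06), and Ccn5 by 4.38 ± 0.60 (adjusted p = 0.000115) and 1.82 ± 0.46 (adjusted p = 0.00585), the second 2.46 ± 0.37 (adjusted p = 0.000228) without control replicate 4. Ccn4, also named Wisp1, fell, at -1.09 ± 0.24 (adjusted p = 0.00215) and -0.59 ± 0.20 (adjusted p = 0.0277), and so did Fosl1, at -0.73 ± 0.23 (adjusted p = 0.0155) and -0.91 ± 0.19 (adjusted p = 0.00136). In the calcium branch 4 of 10 rose and 4 fell at day 3, and 3 rose and 2 fell at day 5. Without control replicate 4, 6 planar polarity genes rose and 1 fell at day 5, and 11 genes for secretion and surface partners rose and 4 fell. Over all 91 tested genes of these lists 37 rose and 19 fell at day 3, and 33 rose and 23 fell at day 5, with medians of 0.33 and 0.17. At day 3 that is 40.7% higher and 20.9% lower, beside 24.6% and 26.2% of all genes tested. At day 5 it is 36.3% higher and 25.3% lower, beside 26.3% and 26.2%. By list, 57.1% to 80.0% were called at day 3, where 50.9% of all genes were. At day 5 the lists ran from 33.3% to 71.4%, where 52.5% of all genes were called.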

How the data were processed

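The authors deposited raw counts of reads per gene, one table per library, made with featureCounts on build mm10, per the submitters' processing notes; which aligner, annotation and strand setting were used is not given in the sources used here, so a gene and an antisense partner may share reads. Libraries were stranded poly(A) and paired-end, per the labels. Of 27179 lines per table, 909 named no gene (0.194% to 0.315% of counts) and were left out, as were Xist, Tsix and Y chromosome genes (112), since sexes are unequal. Symbols came from RefSeq (GRCm38.p6).

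All 14 libraries entered 1 fit with a mean per group (edgeR 4.0.16, R 4.3.3): low counts removed by filterByExpr, scaling by TMM, F tests by quasi-likelihood with robust dispersions, and Benjamini-Hochberg adjustment over the 14327 genes of each of 5 contrasts, called at an adjusted p under 0.05. Members and lists were chosen with earlier results of these data known. Members called in any contrast are given in every library, the others by range. Replicates are embryos, except that control day 3 replicates 1 and 2 share an embryo name. Depth of 2187168 to 39203154 counts limits members near 0; intervals and floors cover counting error only. No pair of libraries was a copy (chi-square per degree of freedom within groups 3.29 to 79.3). The fit was run on simulated counts with few changed genes and independent libraries, so that run does not speak to error rates here. Embryos sampled on both days pair libraries between days, from the labels (correlation of their deviations from the group means -0.023 to 0.204). The alternatives were DESeq2 1.42.0 and its size factors, no filter, only the groups compared, sex as a covariate, replicate and embryo blocks, the shared embryo summed and each library left out; leaving out both the shallowest library and control day 5 replicate 4 was chosen after seeing the data.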

Additional observations from a re-analysis of the deposited data

Results flagged for a closer look

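Within groups of 4 libraries, a library was set apart when its gap to the nearest other library, divided by the range of the group, exceeded Dixon's 95% critical value. This was so in 15 of the 76 member and group pairs tested. In a single group of independent libraries the rule would flag about 1 in 20 by chance. Members share the same libraries and the share over all genes was not counted, so the 15 were not tested against chance. In 7 of the 15 the library was control day 5 replicate 4: it was the highest control for Wnt16 (0.906 of the range), Rspo2 (0.921), Fzd8 (0.922), Sfrp4 (0.916), Wnt10b (0.853) and Fzd5 (0.835), and the lowest for Wnt5a (0.904). The cartilage marker sum of that library was 2615 CPM, against 189 to 364 in the other day 5 controls. Other control libraries stood apart at day 5, replicate 2 for Fzd10 (0.852) and replicate 1 for Rspo1 (0.863). Among day 5 KO libraries, replicate 4 was lowest for Wnt2b (0.872) and Frzb (0.865), replicate 3 highest for Fzd3 (0.841) and Rspo1 (0.843), replicate 2 highest for Sfrp4 (0.971), and replicate 1 highest for Nkd2 (0.852).

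The KO effect at day 5 differed from that at day 3 for 4 of the 38 tested members by the interaction term. That is 10.5% of them, a smaller share than the 14.3% of all genes tested. The difference was -1.32 for Wnt2, -2.24 for Wnt16, -1.58 for Dkk3 and -1.95 for Sfrp1 on the log2 scale, each a smaller effect at day 5.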

How the results depend on the processing

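The 26 member calls of day 3 and the 23 of day 5 held in all alternatives for 18 and 19 members (a further day 3 call, Notum, held in the 12 of 14 in which it was tested), and none of the calls reversed. Lost in at least 1 alternative were Fzd7, Fzd5, Fzd2, Wnt2b, Fzd10, Wnt5b and Lrp6 at day 3, and Rspo2, Dkk2, Fzd10 and Lrp6 at day 5. Between days in controls 4 of 13 calls held in all alternatives (and Wif1 in the 14 of 16 in which it was tested), in KO cells 0 of 1, and 3 of 4 interaction calls. With the shared embryo summed, day 3 calls of Wnt2b (adjusted p = 0.0735), Fzd10 (0.0869) and Lrp6 (0.0727) were lost and Wnt7b was gained. Of the differences not called, 15 were called in at least 1 alternative, among them Wnt4, Wnt10a and Dkk2 at day 3; Dkk2 was so with only the groups compared (0.00178) and the replicate block (2.09e-06). With each library left out in turn, the members called ranged over 22 to 26 at day 3, 19 to 28 at day 5, 0 to 1 between days in KO, 8 to 12 between days in controls and 3 to 6 for the interaction. The genes called ranged over 6244 to 6786, 6502 to 8376, 1024 to 1605 (1725 with all libraries), 4362 to 5686 and 1275 to 2750 (2051 with all libraries). Members called between days in KO, 1 as reported, were 2 with sex as a covariate, 2 with DESeq2, 4 with only the groups compared and 4 without the shallowest library and control day 5 replicate 4. Those in controls, 13 as reported, were 7 with only the groups compared. The cause was not tested.

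Replicate numbers do not pair the genotypes, which come from different embryos (correlations of -0.051 and -0.021 at day 3 and -0.166 to 0.428 at day 5). With the number as a replicate block 26 members were called at day 3 (24 higher, 2 lower of 35) and 25 at day 5 (23 higher, 2 lower of 36). Between days in KO the replicate block called 5 members and the replicate block by embryo 6, and the interaction 6 under both. With the replicate block Wnt9a at day 3 moved to 0.44. The embryo block changed no other call than those named with the day comparisons.

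Reversed signs were all in members not called. The day 3 value of Wnt9a (-0.06) became 0.13 with sex as a covariate, 0.13 without control replicate 1, 0.0026 without KO replicate 3, 0.21 without KO replicate 4 and 0.036 without both doubtful libraries, with -0.57 without KO replicate 2 as the lowest of these. Its day 5 value became -0.047 without KO replicate 3 and was highest, at 0.23, without KO replicate 4. With sex as a covariate Wnt5a became 0.056 at day 3 and 0.071 at day 5, Fzd2 -0.0014 at day 5 and Fzd6 0.091 at day 5. Fzd6 at day 5 also became 0.048 without control replicate 1, 0.060 without control replicate 3 and 0.0049 without KO replicate 3, with -0.10 without control replicate 4 as the lowest. Rspo1 at day 3 became -0.0017 without control replicate 3 (at most 0.97, without control replicate 1), and Nkd2 at day 5 became -0.19 without KO replicate 1 (at most 0.47, without KO replicate 4). Depth limits most the tested members with the fewest counts over all libraries: Fzd10 (103), Lef1 (145), Fzd9 (218), Rspo1 (292) and Notum (328).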
